A study of Mus musculus with 6 samples.

Results

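Integrins are cell surface receptors, each made of 1 alpha and 1 beta chain, that hold cells to matrix, to other cells and to complement-coated targets. The 10 chains described here are carried by macrophages or by the leukocytes that resemble them: the alpha chains Itgam (CD11b), Itgax (CD11c), Itgal (CD11a), Itga4 and Itgav, and the beta chains Itgb1, Itgb2 (CD18), Itgb5, Itgb7 and Itgb8. They were taken by gene name from a table of 22962 genes, in which all 10 had a row. The rule uses no measured value, but the chains were picked with earlier results of these data known. RNA sequencing was done on alveolar macrophages of C57BL/6 mice, which are the phagocytes of the air spaces. One group had received saline and the other bleomycin, an agent that breaks DNA and is used to produce lung fibrosis, both given into the trachea 2 weeks before bronchoalveolar lavage. Lavage cells were left on a culture plate for 30 minutes and washed, and what adhered was lysed, so any other cell that adheres within that time is part of a library. Each group had 3 libraries (saline replicates 1, 2 and 3, bleomycin replicates 1, 2 and 5) of 27654799 to 37147983 reads. The sources used here give neither the age and sex of the mice nor whether each library came from a separate mouse, so the p-values measure only the spread between these samples, which may be technical.

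Pairing decides what an integrin chain does. Itgb2 pairs with Itgal to give LFA-1, which binds ICAMs, with Itgam to give Mac-1 or complement receptor 3, which binds the complement fragment iC3b and fibrinogen, with Itgax to give complement receptor 4, and with Itgad. Itga4 pairs with Itgb1 to bind VCAM-1 and fibronectin and with Itgb7 to bind MAdCAM-1, while Itgb7 with Itgae binds E-cadherin. Itgav pairs with Itgb1, Itgb3, Itgb5, Itgb6 or Itgb8 to bind ligands with an RGD motif, among them vitronectin, osteopontin, MFG-E8 and the latency peptide of TGF-beta, and the pairs with Itgb6 and Itgb8 are known for releasing active TGF-beta. Resident alveolar macrophages are known for high CD11c and low CD11b on their surface, whereas monocytes and neutrophils carry CD11b.

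Values are normalized read counts, that is the reads of a gene divided by 1 size factor per library, given by library in replicate order and then as the group mean ± SD (n = 3). Changes are log2 fold changes of bleomycin against saline ± SE from limma on log2(value + 1), a scale that understates the change of low genes. Fold values of tested genes are these changes taken back from the log2 scale, so they can differ from the ratio of the group means. A gene was tested if its value was at least 10 in at least 3 libraries, and called at a Benjamini-Hochberg adjusted p under 0.05 over the 13512 genes tested. Of the 10 chains, 9 were tested, and Itgb8 was too low. The test called 4 chains higher in bleomycin (Itgam, Itgb7, Itgb5 and Itgav) and 0 lower. Over all genes tested, 9.76% were called higher and 3.9% lower. The 0 lower calls came from limma, edgeR and DESeq2 alike, and 1 chain, Itgal, was lower at an unadjusted p under 0.05. The values of the groups did not overlap for 6 of the 9 chains, against 30.8% of all genes tested, and the median change was a log2 of 0.57 over the chains and -0.01 over all genes tested. The plot of all 10 chains by library shows these values.

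**Figure D1:**
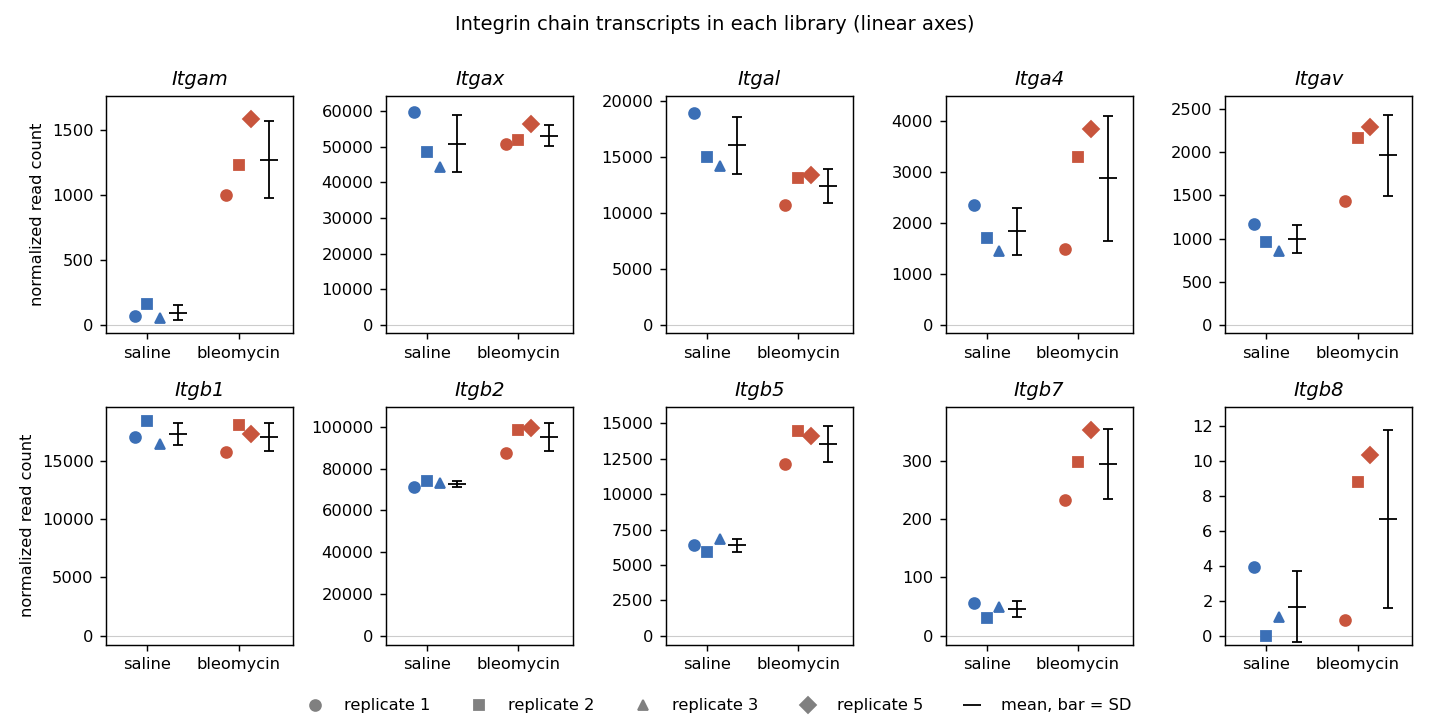
Normalized read count (linear vertical axes, a scale of its own for each gene) of the 10 integrin chains in 3 saline and 3 bleomycin libraries. Symbols mark the replicate, and the line with a bar beside them is the mean ± SD. Itgam, Itgav, Itgb2, Itgb5 and Itgb7 were higher in every bleomycin library than in any saline library, and Itgal was lower.

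The label was checked first. All 7 general macrophage markers were read in both groups, and 2 of 7 were called higher, against 9.76% of all genes tested. Their summed value was 815201 to 940740 in saline and 1434709 to 1702339 in bleomycin, mostly from Lyz2, one of those called, and without Lyz2 it was 130096 to 147889 and 144257 to 165527, which overlap. The table held markers of other cells too. Markers of resident alveolar macrophages summed to 490736 to 619056 in saline and 245465 to 362427 in bleomycin. Of these, 5 of 8 were called lower, against 3.9% of all genes tested. Most of this sum in every library was Chil3 (402547 ± 83968 to 221981 ± 42535, SD, n = 3 each), one of those called. Its call held in 11 of 18 alternative settings. Fabp4, Pparg and Marco were not called. Markers of monocytes and the macrophages they give rise to summed to 2424 to 2957 in saline and 126755 to 232378 in bleomycin. Of these, 7 of 8 were called higher, against 9.76% of all genes tested. Most of that sum was Apoe (2319 ± 224 to 166533 ± 48130, SD, n = 3 each), one of those called. In bulk RNA, fewer cells of a type and less RNA per cell cannot be told apart. The part of these cells in the changes of the integrin chains was not tested.

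Within the beta 2 family, Itgam rose 15.1-fold from a very low level, while Itgax and the common chain Itgb2 were the most abundant chains per kilobase in both groups. Itgb2, on chromosome 10 (77530252 to 77565708, GRCm38), was at 71204, 74238 and 72855 in saline and 87243, 98372 and 99464 in bleomycin. The groups did not overlap, but the rise from 72766 ± 1519 to 95026 ± 6763 (SD, n = 3 each) was 1.30-fold and missed the threshold (log2 0.38 ± 0.13, limma adjusted p = 0.0893). It was past it only with DESeq2 (adjusted p = 0.00787). Quantile normalization put the log2 change at 0.09.

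Itgax, the alpha chain that defines CD11c, was at 59925, 48582 and 44236 in saline and 50901, 51996 and 56448 in bleomycin. The groups overlapped, and no change was detected (50914 ± 8101 against 53115 ± 2938, SD, n = 3 each, log2 0.07 ± 0.15, limma adjusted p = 0.822). Itgal, the LFA-1 alpha chain, was at 18950.3, 14992 and 14253 in saline and 10688, 13158 and 13449 in bleomycin. Every bleomycin library lay below every saline library, yet the difference of -0.37 ± 0.15 on the log2 scale did not pass (limma adjusted p = 0.160).

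Itgam was at 64.7, 159 and 53.0 in saline and 999.8, 1228 and 1588 in bleomycin. Saline replicate 2 was the highest saline library and still lay far below the lowest bleomycin library. The mean went from 92.1 ± 57.9 to 1272 ± 296 (SD, n = 3 each, log2 3.92 ± 0.38, limma adjusted p = 0.000437), and all 18 alternative settings called it. These counts are uncertain as levels: 68.7% of the annotated exon bases of Itgam also belong to Gm49368, a protein-coding gene on the same strand, which held 0 to 1 read per library. The sources used here do not say how reads in shared exons were counted.

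Neutrophils also carry Itgam. The 8 neutrophil markers in the table summed to 1477 to 2920 in saline and 2950.0 to 3247 in bleomycin. Of the 5 tested, 2 were called higher, against 9.76% of all genes tested, and 3 were not called. Their log2 changes ran from -0.34 to 1.95 with a median of 0.30. Mpo and Camp were at 0 in every saline library. Saline replicate 2 had the highest saline sum, and its S100a9 value was 503 against 4.90 and 7.42 in the other saline libraries. With both saline replicate 2 and bleomycin replicate 1 left out, Itgam was again called. These were its highest saline and lowest bleomycin libraries, so leaving them out widens the gap and is no check of the call. The part of neutrophils in the value of Itgam was not tested.

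Itgal, Itgam, Itgax and the fourth beta 2 partner, Itgad, lie on the plus strand of chromosome 7 (GRCm38), Itgal at 127296260 to 127335138, Itgam at 128062640 to 128118491, Itgax at 128129547 to 128150657 and Itgad at 128154376 to 128223816. The gap between Itgam and Itgax is 11.1 kb, and that between Itgax and Itgad is 3.72 kb. Of these 3 neighbours Itgam was called higher, Itgax was not called and Itgad was called lower. Other genes share 19.7% of the exon bases of Itgad, 7.32% on the same strand. Itgad was at 518, 189 and 261 in saline and 97.9, 59.3 and 74.1 in bleomycin. It fell 3.86-fold (323 ± 173 to 77.1 ± 19.5, SD, n = 3 each, log2 -1.95 ± 0.37, limma adjusted p = 0.00905) and was called in all 18 alternative settings, so 1 neighbour of Itgax rose and the other fell. The log2 ratio of Itgam to Itgax was -9.27 ± 0.88 in saline and -5.41 ± 0.26 in bleomycin, a difference of 3.86, and that of Itgad to Itgax went from -7.42 ± 0.58 to -9.46 ± 0.39. Both ratios were fully apart between groups, and the two-sided exact permutation test gave p = 0.1 for each, the smallest that 3 against 3 libraries allow (0.133 adjusted over the 8 ratios and shares computed).

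The promoters of Itgam and Itgax are shown because of these neighbours one was called and the other was not. They are the 250 bases before the RefSeq start (GRCm38.p6), 5′ to 3′ on the gene's strand, in lower case. Capitals mark matches on either strand to motifs of factors known in myeloid genes: PU.1 (GAGGAA, in 23.3% of 32851 promoters of this length), RUNX (TGTGGT, 14.05%), AP-1 (TGANTCA, 6.75%), Sp1 (GGGCGG, 32.7%) and C/EBP (TTNNGNAA, 36.8%). Of the 10 chains, 8 had an entry, and none was found for Itgal and Itgb2.
Itgam, chr7:128062390-128062639, plus strand: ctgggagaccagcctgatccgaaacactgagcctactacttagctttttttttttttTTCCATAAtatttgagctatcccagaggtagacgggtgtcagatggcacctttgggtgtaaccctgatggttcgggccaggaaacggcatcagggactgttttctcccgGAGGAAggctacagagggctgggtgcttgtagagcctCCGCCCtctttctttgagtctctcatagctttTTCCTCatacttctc
Itgax, chr7:128129300-128129549, plus strand: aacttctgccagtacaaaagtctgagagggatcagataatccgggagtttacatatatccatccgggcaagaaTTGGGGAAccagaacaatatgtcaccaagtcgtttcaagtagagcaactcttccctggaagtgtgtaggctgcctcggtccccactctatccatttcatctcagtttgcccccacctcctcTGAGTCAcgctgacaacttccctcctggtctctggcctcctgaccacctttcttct
Itgam had the PU.1 letters 84 and 15 bases before its start, the Sp1 letters at 47 and the C/EBP letters at 193. Itgax had the AP-1 letters at 56 and the C/EBP letters at 177. A match is a description of the letters and not of a bound site.

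Levels of different genes were compared per kilobase of annotated exon. Among the alpha chains that pair with Itgb2, Itgax made up 80.7 ± 0.36% of the summed value per kilobase in saline and 83.7 ± 1.30% in bleomycin, and Itgal 18.6 ± 0.33% and 14.3 ± 1.13%. Itgam made up 0.143 ± 0.0957% and 1.90 ± 0.32%, and Itgad 0.528 ± 0.203% and 0.130 ± 0.0389% (all SD, n = 3 each). All 4 shares were apart between groups, each with an exact permutation p of 0.1 (0.133 adjusted over the same 8). Itgax was the leading alpha transcript in every library, and Itgam stood above Itgad in every bleomycin library. When lengths held only exon bases that no other gene shares, the Itgam share was 0.454% in saline and 5.82% in bleomycin and that of Itgax was 80.3% in both groups, so its rise in share depends on the length used. So does the order of Itgam and Itgad in saline: Itgam was the lower of them in every saline library by full length, but by unshared bases it was the higher in saline replicate 2 (101 against 52.2 per kilobase). The plot of the beta 2 family per kilobase shows the order.

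**Figure D2:**
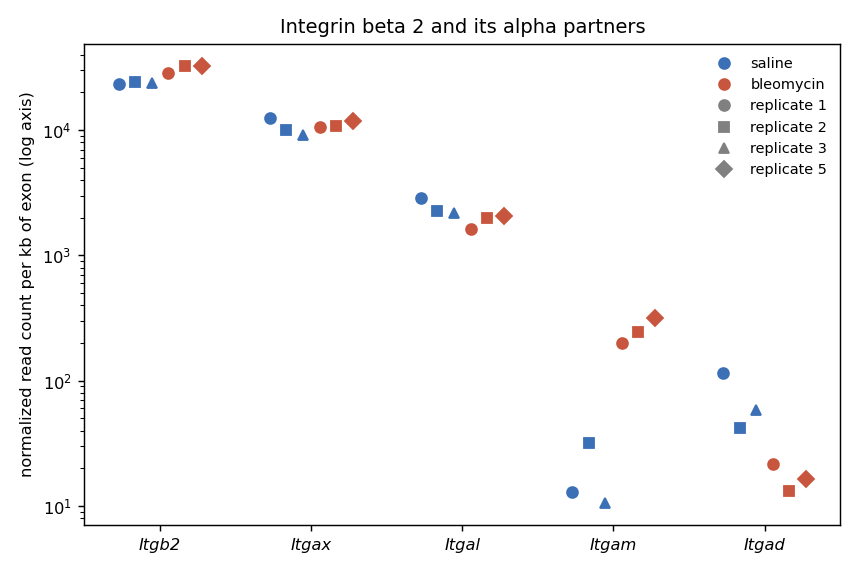
Normalized read count per kilobase of exon (log axis) of Itgb2 and its 4 alpha partners, 1 point per library, with color for the group and symbol for the replicate. Itgb2 and Itgax lead in all 6 libraries, Itgam is higher in each bleomycin library than in any saline library, and Itgad is lower.

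Of the chains that form the alpha 4 and beta 7 receptors, Itgb7 rose 6.48-fold, Itgb1 showed no detectable change, and Itga4 differed among the bleomycin libraries. Itgb1, the common partner of most matrix-binding alpha chains (chromosome 8, 128685654 to 128733200), was at 17022, 18356 and 16456 in saline and 15722, 18011 and 17309 in bleomycin. The groups overlapped (17278 ± 976 against 17014 ± 1173, SD, n = 3 each, log2 -0.02 ± 0.11, limma adjusted p = 0.929).

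Itga4 (chromosome 2, 79255426 to 79333123) was at 2344, 1701 and 1457 in saline and 1486, 3302 and 3843 in bleomycin. Bleomycin replicate 1 lay within the saline range and the other bleomycin libraries above it, and the change was not called (log2 0.57 ± 0.34, limma adjusted p = 0.351). Without bleomycin replicate 1 Itga4 was called higher (log2 0.99, limma adjusted p = 0.0161), and also when saline replicate 2 was left out with it (log2 0.95, limma adjusted p = 0.0255). Both fits drop the bleomycin library that lay within the saline range, so these calls are no separate evidence of a rise. They were the only 2 of 18 alternative settings that called Itga4. Bleomycin replicate 1 was also the lowest bleomycin library for every other chain described here. It was lowest too for the marker sums of monocytes, dendritic cells, neutrophils, B cells, NK cells, endothelium and T cells, the last without Cd2. For the resident alveolar macrophage and fibroblast sums, and the T cell sum with Cd2, it was the highest bleomycin library. An annotated gene on the other strand, Cerkl, shares 8.04% of the exon bases of Itga4.

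Itgb7 (chromosome 15, 102215995 to 102231944) was at 56.9, 30.4 and 48.8 in saline and 233, 298 and 352 in bleomycin. All bleomycin libraries were above all saline libraries (45.4 ± 13.6 to 294 ± 59.6, SD, n = 3 each, log2 2.70 ± 0.29, limma adjusted p = 0.000625), and all 18 alternative settings called it. Its other alpha partner, Itgae (CD103), was at 46.1, 22.8 and 45.6 in saline and 199, 436 and 502 in bleomycin, 9.43-fold higher (38.2 ± 13.3 to 379 ± 159.5, SD, n = 3 each, log2 3.24 ± 0.41, limma adjusted p = 0.00137). Both partners of the E-cadherin receptor were therefore called higher, whereas the log2 ratio of Itgae to Itgb7 went from -0.27 ± 0.16 to 0.28 ± 0.44 with an exact permutation p of 0.2 (0.229 adjusted over 8).

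Itgb7 and Itgae are also carried by T cells and dendritic cells. All 10 T cell markers summed to 12834 to 15584 in saline and 7590 to 10867 in bleomycin, mostly from Cd2. The T cell markers other than Cd2 summed to 25.5 to 32.6 in saline and 156 to 547 in bleomycin, with Bcl11b at 0 in every saline library. No count of calls is given for them, since 6 of the 8 tested passed the filter only through bleomycin. Cd2 went the other way, from 12808 to 15559 in saline to 7042 to 10710.3 in bleomycin. Dendritic cell markers summed to 285 to 631 and 1004 to 2149.8, with Siglech at 0 in every saline library. Of the 6 dendritic cell markers that did not pass the filter through bleomycin alone, 4 were called higher, against 9.76% of all genes tested. B cell markers summed to 16.3 to 20.6 and 84.4 to 1045, and NK cell markers to 4.90 to 10.6 and 11.7 to 39.6. The part of these cells in Itgb7, Itgae and Itga4 was not tested.

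The promoter of Itgb7 is shown as that of a chain that rose, from the same table.
Itgb7, chr15:102231936-102232185, minus strand: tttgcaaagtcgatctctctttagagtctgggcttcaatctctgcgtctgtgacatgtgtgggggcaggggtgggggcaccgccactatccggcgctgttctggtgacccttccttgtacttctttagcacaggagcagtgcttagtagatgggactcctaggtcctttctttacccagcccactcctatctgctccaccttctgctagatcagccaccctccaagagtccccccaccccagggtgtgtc
None of the 5 motifs had a match in it, which says only that these letters are not in this window.

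Of the alpha v receptors, both Itgav and Itgb5 rose, by close to 2-fold each, while Itgb8 was barely read. Itgb5 (chromosome 16, 33829665 to 33949338) was at 6434, 5894 and 6835 in saline and 12114, 14448 and 14074 in bleomycin. It rose 2.12-fold (6388 ± 472 to 13545 ± 1254, SD, n = 3 each, log2 1.08 ± 0.12, limma adjusted p = 0.00066) and was called in all 18 alternative settings. Its spread was small in both groups, and its lowest bleomycin library was far above its highest saline library.

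Itgav (chromosome 2, 83724397 to 83806916) was at 1166, 958 and 857 in saline and 1432, 2163 and 2295 in bleomycin. It rose 1.95-fold (994 ± 158 to 1964 ± 465, SD, n = 3 each, log2 0.96 ± 0.20, limma adjusted p = 0.0139). The limma adjusted p was 0.0557 when saline replicate 3 was left out, 0.0756 for bleomycin replicate 2 and 0.0742 for bleomycin replicate 5, so each of these ended the call. A noncoding gene on the other strand, Gm13684, shares 5.90% of its exon bases. The log2 ratio of Itgav to Itgb5 was -2.69 ± 0.27 in saline and -2.81 ± 0.24 in bleomycin, and the groups overlapped (exact permutation p = 0.6, also 0.6 adjusted over 8).

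Itgb8 (chromosome 12, 119158022 to 119238802) was close to absent. It had 4, 0 and 1 reads in saline and 1, 8 and 12 in bleomycin. Scaled to library size this is 3.8-fold more in bleomycin, with a 95% interval of 1.4 to 12.9 that covers counting error only, and bleomycin replicate 1 lay inside the saline range. Itgb6, the other chain known for TGF-beta release, had values of 0 to 3.92 in saline and 7.19 to 35.3 in bleomycin and was not tested. Itgb3 was at 6.86, 0 and 0 in saline and 18.9, 54.9 and 41.4 in bleomycin and all bleomycin libraries were above all saline libraries. It passed the filter only through the bleomycin libraries, where it is high, so its call (limma adjusted p = 0.0145) was conditioned on the difference, and its fitted change depends on the pseudocount, from a log2 of 2.60 to 4.86. Of the beta partners of Itgav, Itgb1 and Itgb5 had the highest levels per kilobase in both groups.

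The promoters of Itgav and Itgb5 are shown because these partners rose together, with the same marking.
Itgav, chr2:83724147-83724396, plus strand: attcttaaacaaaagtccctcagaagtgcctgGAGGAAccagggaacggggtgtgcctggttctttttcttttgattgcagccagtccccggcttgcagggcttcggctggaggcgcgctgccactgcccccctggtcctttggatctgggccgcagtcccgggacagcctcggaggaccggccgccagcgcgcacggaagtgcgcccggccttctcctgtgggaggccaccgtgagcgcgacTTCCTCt
Itgb5, chr16:33829415-33829664, plus strand: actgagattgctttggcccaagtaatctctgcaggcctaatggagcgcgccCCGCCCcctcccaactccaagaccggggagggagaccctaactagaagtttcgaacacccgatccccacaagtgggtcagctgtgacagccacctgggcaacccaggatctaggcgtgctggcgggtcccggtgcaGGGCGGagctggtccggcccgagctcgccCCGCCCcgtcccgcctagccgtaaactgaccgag
Itgav had the PU.1 letters 218 and 7 bases before its start, and Itgb5 had the Sp1 letters at 199, 63 and 34. They had none of these motifs in common.

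In order of level per kilobase, saline libraries gave Itgb2 23842 ± 498, Itgax 10600.5 ± 1687, Itgb1 4234 ± 239, Itgal 2446 ± 384 and Itgb5 1798 ± 133, and none of these overlapped with the next in the order. Itga4 at 131 ± 32.8 overlapped with Itgav at 92.5 ± 14.7, Itgam at 18.3 ± 11.5 overlapped with Itgb7 at 16.4 ± 4.89, and Itgb8 came last of the 10 at 0.150 ± 0.183 (SD, n = 3 each). In bleomycin Itgb2 stood at 31136 ± 2216, Itgax at 11059 ± 612 and Itgb1 at 4169 ± 287, and Itgb1 now overlapped with Itgb5 at 3812 ± 353, which had passed Itgal at 1893 ± 231. Itgam at 253 ± 59.0, Itga4 at 206 ± 88.3 and Itgav at 183 ± 43.3 formed a run of overlapping values above Itgb7 at 106 ± 21.5. Itgb8 was last at 0.604 ± 0.458. The place of Itgam depends on the length used: per kilobase of unshared exon bases it was 58.5 ± 36.8 in saline and 808 ± 188 in bleomycin, above Itga4 at 224 ± 96.0 and Itgav at 194 ± 46.0 in bleomycin with no overlap. Itgb5 moved up in the order by either length, while its first 3 places were the same in both groups.

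Of 16 other integrin chains, 10 were tested, 4 were called higher and 1, Itgad, lower, against 9.76% and 3.9% of all genes tested. Itga3 and Itgb3 passed the filter only through bleomycin, so they could hardly be tested without being higher, and of the 8 other chains tested 2 were called higher and 1 lower. Beside Itgae and Itgb3, the higher chains were Itga3, a laminin receptor chain, and Itga6, another. Itga3 was at 9.81, 8.69 and 5.30 in saline and 63.8, 186 and 193 in bleomycin (log2 3.93 ± 0.48, limma adjusted p = 0.00122). Itga6 was at 525, 390.0 and 385 in saline and 561, 1099.8 and 1144 in bleomycin, 2.07-fold higher (log2 1.05 ± 0.28, limma adjusted p = 0.0378), a call that ended when any of saline replicates 2 and 3 and bleomycin replicates 2 and 5 was left out. Both chains are also found in epithelium. The 6 epithelial markers summed to 4263 to 4990.1 in saline and 2484 to 2812 in bleomycin, with 4 called higher and 1 lower. The lower one, Epcam, made up most of the sum in saline (4378 ± 452 to 1426 ± 467, SD, n = 3 each, log2 -1.66 ± 0.21, limma adjusted p = 0.00135), and the other 5 summed to 119 to 280.0 and 725 to 1652. Their part in these chains was not tested.

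The fibronectin receptor chain Itga5, the most abundant of the 16, was not called (4005 ± 418 to 4871 ± 661, SD, n = 3 each, log2 0.28 ± 0.14, limma adjusted p = 0.249), nor was the collagen receptor chain Itga1 (log2 0.10 ± 0.25, limma adjusted p = 0.848). Itga10, Itga2b and Itgb4 were tested and not called, with limma adjusted p of 0.347, 0.931 and 0.0734, and Itga2, Itga7, Itga8, Itga9, Itga11 and Itgb6 were below the filter. The count of higher chains was 2 without bleomycin replicate 1 and 1 without bleomycin replicate 2 or 5, and in those fits 8 of the 16 were tested, since chains near 0 in saline then lacked 3 libraries at the minimum. With both saline replicate 2 and bleomycin replicate 1 left out it was 3. The plot of changes sets the 10 chains beside the others.

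**Figure D3:**
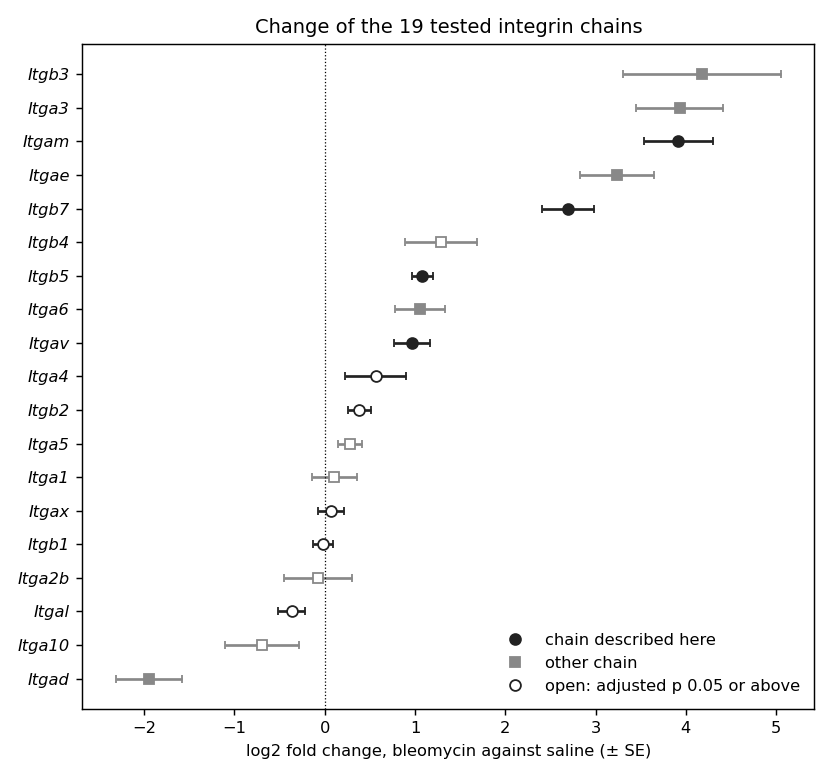
Log2 fold change of bleomycin against saline ± SE for the 19 integrin chains tested, from limma. Circles are the chains described here and squares the other chains, and filled symbols had an adjusted p under 0.05. The 8 filled symbols to the right of 0 and Itgad to the left are the calls, of which Itgb3 and Itga3 passed the filter only through bleomycin.

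Of 25 genes of integrin ligands 18 were tested, 9 were called higher and 1 lower, against 9.76% and 3.9% of all genes tested. Of these calls, 5 higher ones (Lrrc32, Vcam1, Tnc, Tgfb3 and Ltbp1) and the lower one passed the filter only through the group where they are high, so their calls were conditioned on the difference. Of the 12 other ligands tested, 4 were called higher. Among all 9 higher calls, the 4 with the smallest p code for ligands of alpha v receptors or for a protein that presents one. Other listed genes do so too, and Tgfb1 and Nrros among them were not called. Nrros, named after its values were seen, was more abundant than Lrrc32 (6037 ± 523 to 6460 ± 247, SD, n = 3 each, log2 0.10 ± 0.11, limma adjusted p = 0.642). Mfge8, which bridges dying cells to Itgav receptors, was at 615, 462 and 428 in saline and 10488, 14119 and 15880.1 in bleomycin. It was 26.8-fold higher (log2 4.74 ± 0.19, limma adjusted p = 7.14e-06) and the groups were far apart. Lrrc32 (GARP), which holds latent TGF-beta at the cell surface for alpha v receptors, was at 4.90, 2.17 and 2.12 in saline and 58.4, 278 and 233 in bleomycin (log2 5.34 ± 0.61, limma adjusted p = 0.000933). Thrombospondin 1 (Thbs1) was 19.3-fold higher (95.8 ± 54.9 to 2092 ± 1349, SD, n = 3 each, limma adjusted p = 0.00232) and osteopontin (Spp1) 11.3-fold (limma adjusted p = 0.000275). Another gene on the same strand, Gm42793, shares 18.75% of the exon bases of Spp1.

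The other higher ligands were Fn1, Vcam1, Tnc, Tgfb3 and Ltbp1, named to complete the count after their values were seen. Fibronectin (Fn1) was at 57326, 37386 and 31266 in saline and 62117, 113604 and 141913 in bleomycin (log2 1.30 ± 0.32, limma adjusted p = 0.0305), a call that ended when any of saline replicates 2 and 3 and bleomycin replicates 2 and 5 was left out. Vcam1, the cell-bound ligand of the alpha 4 receptors, reached at most 94.0 in any library. Tgfb1, the latent cytokine that alpha v receptors activate, was not called (15927 ± 755 to 12816 ± 468, SD, n = 3 each, log2 -0.31 ± 0.10, limma adjusted p = 0.0841), although every bleomycin library was below every saline library. Nor was C3, the source of the ligand of Itgam and Itgax (log2 -0.43 ± 0.38, limma adjusted p = 0.565). The lower ligand was Icam4, at 8.21 ± 0.528 in bleomycin, all of whose exon bases another gene shares. The count of higher ligands was 4 without bleomycin replicate 1, 3 without bleomycin replicate 2 or 5, and 4 with both saline replicate 2 and bleomycin replicate 1 left out, when 12 or 13 were tested. The single lower ligand was no longer called, or no longer tested, when any 1 library was left out. Fibroblast markers summed to 35.3 to 321 in saline and 219 to 849 in bleomycin, which overlap. Endothelial markers summed to 6.52 to 20.6 and 28.7 to 80.2. The part of these cells in the ligands and in Itgav and Itgb5 was not tested.

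**Figure D4:**
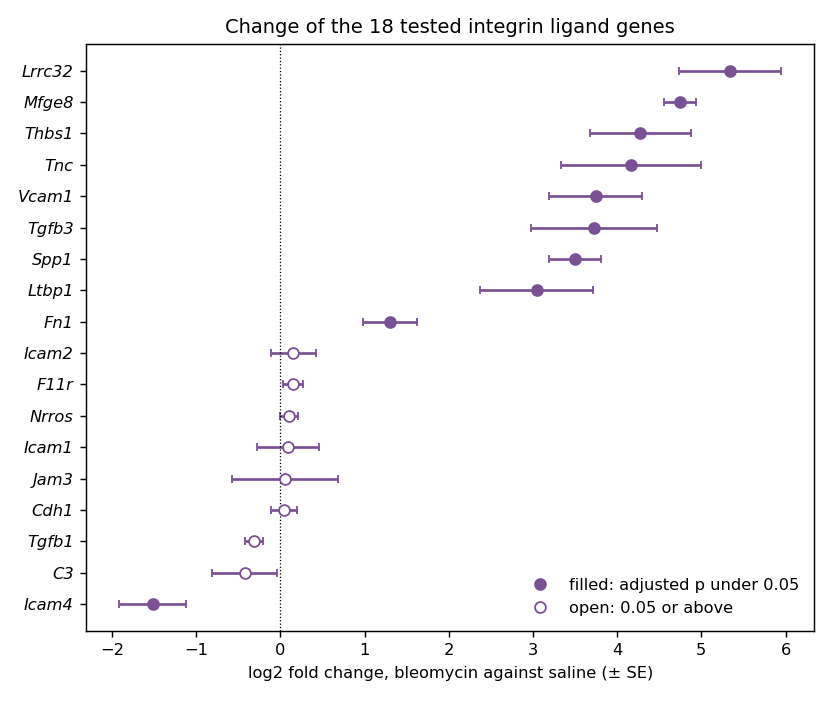
Log2 fold change of bleomycin against saline ± SE for the 18 integrin ligand genes tested, from limma. Filled points had an adjusted p under 0.05. Lrrc32, Tnc, Vcam1, Tgfb3 and Ltbp1 passed the filter only through bleomycin and Icam4 only through saline. Lrrc32 and Mfge8 had the largest fold changes, Tgfb1 and C3 lay left of 0 without a call, and Icam4 was the lower call.

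Integrins are switched on from inside the cell, when talin and kindlin bind the beta tail under the control of Rap1. Of 22 activators and tail adaptors, 21 were tested, 4 were higher and 3 lower, against 9.76% and 3.9% of all genes tested. Those called higher were low in saline. Rasgrp2 (CalDAG-GEFI), the exchange factor that loads Rap1, was at 19.6, 15.2 and 23.3 in saline and 121, 160.4 and 135 in bleomycin, 6.92-fold higher (log2 2.79 ± 0.28, limma adjusted p = 0.000483). Fyb (ADAP), an adaptor of Rap1 signalling in T cells and platelets, was 17.9-fold higher (32.1 ± 15.2 to 643 ± 371, SD, n = 3 each, limma adjusted p = 0.00132). Rap1gap2, which switches Rap1 off, was 10.4-fold higher (limma adjusted p = 0.00372). The remaining one, Skap1, a partner of Fyb, had values of at most 27.5 and passed the filter only through bleomycin.

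Those called lower were abundant and moved little. Rassf5 (RAPL), which links Rap1 to LFA-1, went from 7295 ± 823 to 4973 ± 629.8 (SD, n = 3 each, log2 -0.55 ± 0.13, limma adjusted p = 0.0259), Apbb1ip (RIAM), which brings talin to the membrane, was at log2 -0.55 ± 0.14 (limma adjusted p = 0.0332), and Sipa1, a Rap1 inhibitor, at -0.37 ± 0.10 (limma adjusted p = 0.0477). Their count was 0 when saline replicate 1 or bleomycin replicate 2 or 5 was left out and 1 for each other library, and also 1 with both saline replicate 2 and bleomycin replicate 1 left out, when the higher count was 2. Filamin A (Flna) and Dab2, the most abundant adaptors, were not called (log2 -0.45 ± 0.16, limma adjusted p = 0.118, and -0.13 ± 0.13, limma adjusted p = 0.604).

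Of 26 genes of adhesion sites and of signalling from integrins, 24 were tested, 4 were higher (16.7%) and 0 lower. The shares over all genes tested were 9.76% higher and 3.9% lower. The median log2 change of the list was 0.01. The kinase Src was at 86.3, 71.7 and 109 in saline and 389.9, 788 and 784 in bleomycin, 7.02-fold higher (log2 2.81 ± 0.30, limma adjusted p = 0.000637). Focal adhesion kinase (Ptk2) was 2.9-fold higher (40.2 ± 7.23 to 118 ± 20.2, SD, n = 3 each, limma adjusted p = 0.00557). Parvb, a partner of integrin-linked kinase, was 1.49-fold higher (limma adjusted p = 0.00712), and the signalling protein Vav3 1.86-fold (limma adjusted p = 0.0278). Parvb was not called without bleomycin replicate 2 or 5, and Vav3 not without any 1 library other than bleomycin replicate 1. The higher count was 2 without bleomycin replicate 2 or 5 and 5 without bleomycin replicate 1, and the lower count was 1 without saline replicate 2.

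Fcer1g and Tyrobp, the signalling adaptors through which beta 2 integrins act in myeloid cells, were abundant and not called (log2 0.16 ± 0.14, limma adjusted p = 0.569, and 0.27 ± 0.15, limma adjusted p = 0.324). The 0 lower calls came from limma, edgeR and DESeq2 alike, with 2 genes lower at an unadjusted p under 0.05. Of 5 membrane partners of integrins, 1 was called higher, against 9.76% of all genes tested. Caveolin 1 (Cav1) was that partner, 1.74-fold higher (2785 ± 311 to 4836 ± 227, SD, n = 3 each, limma adjusted p = 0.00283). The urokinase receptor Plaur (limma adjusted p = 0.81) and Slc3a2 (CD98 heavy chain, limma adjusted p = 0.871), the most abundant of the others, were not called.

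Among 78 tested genes of these lists, those whose log2 values over the 6 libraries followed Itgam most closely were Rap1gap2 (Pearson r = 0.990), Cav1 (0.980) and Fyb (0.979). Those nearest to Itgb7 were Itgae (0.991), Rasgrp2 (0.986) and Mfge8 (0.985). These values describe libraries that fall into 2 groups, and no test was made.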

How the data were processed

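Total RNA of plate-adherent lavage cells was sequenced in 3 saline and 3 bleomycin libraries, grouped by the labels. Per the submitters' processing notes, the tools were STAR 2.5.2b, HTSeq 0.6.0, DESeq2 and bcl2fastq 2.18.0.12, and the build was mm10. The sources used here do not give their roles, the annotation, the strand setting or the treatment of shared exons. What the authors deposited is a normalized signal, each gene's reads over the library's size factor: 100% of values were whole multiples of 1 read within 0.05 read, and at these depths 3 reads equal a value of 2.59 to 3.30.

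Genes with values of at least 10 in at least 3 libraries (13512 of 22962) were tested on the log2(value + 1) scale with limma 3.58.1 (R 4.3.3), as a two-sided moderated test with an intensity trend, group as the only term and Benjamini-Hochberg adjustment over all tested genes. Ratios and shares were compared with exact permutation tests over libraries. Exon lengths and positions came from GENCODE vM21 on GRCm38, the assembly that mm10 names, and promoters from RefSeq (GRCm38.p6). A symbol was found for 22873 gene identifiers.

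The integrin chains and gene lists were chosen with earlier results of these data known. The rule named all 10 chains, other chains that were called or above Itgb8 per kilobase, 4 called members of each list by smallest p and the 2 highest uncalled, and for Itgam and Itgb7 the 3 most correlated listed genes.

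The other settings tried were edgeR 4.0.16 and DESeq2 1.42.0 on the recovered reads, TMM and quantile scaling, pseudocounts of 0.5 and 5, a filter at 50 or none, limma with robust variances or without the trend, a block on the replicate number, and each library left out. A fit without both saline replicate 2 and bleomycin replicate 1, and lengths of unshared exon bases, were added after the data were seen.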

Additional observations from a re-analysis of the deposited data

How the results depend on the processing

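Of the 4 chains called higher, Itgam, Itgb5 and Itgb7 were called in all 18 alternative settings and Itgav in 14. The number of chains called higher was 5 with DESeq2 and 3 with the replicate block, and it ran from 3 to 5 when 1 library was left out. No alternative reversed a call. Among genes of the other lists, 1273 values under an alternative kept their side of the threshold, 64 lost a call and 14 gained one. With the replicate block, which rests on replicates 1 and 2 alone, Itgav (adjusted p = 0.141), all 3 lower adaptors (0 lower) and all but 1 of the higher signalling genes (1 higher) were lost, and the calls over all genes fell to 194 lower. Only 2 numbers are shared, and the deviations of same-numbered libraries correlated at -0.20 and 0.02. Those of differently numbered libraries correlated at -0.17 to 0.23. So few values cannot decide whether same-numbered libraries were paired, and the sources used here do not say. Leaving out 1 library gave 1 to 4 higher calls among the other chains, 3 to 9 higher and 0 lower among the ligands, 3 to 5 higher and 0 to 1 lower among the activators, 2 to 5 higher and 0 to 1 lower among the signalling genes, and 502 to 1173 higher and 162 to 576 lower over all genes. Part of these losses came from genes that no longer passed the filter. A minimum of 50 gave 5 higher and 0 lower ligands and 2 higher activators. No filter gave 0 lower ligands, DESeq2 gave 2, and no trend gave 0 lower activators. With both saline replicate 2 and bleomycin replicate 1 left out there were 4 higher and 0 lower ligands, 2 higher and 1 lower activators and 1 lower signalling gene. The difference in share of Itgal was -5.30 percentage points when values were not divided by length, against -4.34, and with unshared exon bases it was 5.37 for Itgam, against 1.76, and -0.034 for Itgax, against 2.98. The median change over all genes was -0.01 in the fit reported, 0.01 with TMM and -0.10 with quantile normalization. The causes of these shifts were not tested. Depth limits Itgb8, with 4, 0 and 1 reads in saline, and Itgb3, with 7, 0 and 0.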
